A study of Mus musculus with 18 samples.

Results

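Type I interferon-stimulated antiviral genes were followed through 9 RNA-seq libraries of mouse macrophages. The set is a list of 40 gene symbols that encode the classical antiviral proteins induced by interferon, and each was matched to its Ensembl ID through the GENCODE M21 annotation. Of the 40 members, 39 were among the 11164 genes of the expression table. Ifit3 was not among them and is not analysed here. All 39 were among the 9934 genes that were tested.

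The cells were macrophages grown from the bone marrow of wild-type C57BL/6J (WT) mice, of mice lacking the cytokine BAFF (BAFF KO) and of mice lacking its relative APRIL (APRIL KO). 1 library of each genotype was unstimulated, and the others had been exposed for 4 h to lipopolysaccharide (LPS), a component of bacterial outer membranes, at 10 ng/ml. Every sample, the WT ones included, is labelled as preterm birth at day 16 of gestation. The labels give neither the knockout alleles nor the number of animals nor whether replicate libraries had separate biological sources. The p-values therefore reflect the scatter of these libraries alone, and that scatter could be technical. Each genotype had 1 unstimulated library (13 for WT, 16 for BAFF KO and 19 for APRIL KO) and 2 LPS libraries (14 and 15, 17 and 18, 20 and 21, in the same order). Values are RPKM, read counts divided by gene length and by library size, which allows levels of different genes to be compared. Differences are on the log2(RPKM + 1) scale, where 1 is close to a doubling for a well-expressed gene.

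LPS is sensed by Toll-like receptor 4. Through the adaptor TRIF this receptor activates the kinase TBK1 and the transcription factor IRF3, and macrophages then make interferon-beta. Interferon-beta acts back on the cells through the receptor IFNAR1 and IFNAR2, the kinases JAK1 and TYK2, and a transcription factor complex with IRF9 that binds the interferon-stimulated response element (ISRE) in target promoters. The targets sense viral RNA and DNA, degrade RNA, block translation, or hold back viral entry and release.

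Each library held 5121833 to 6020780 reads in listed genes. Tnfsf13, the gene of APRIL, had 0 reads in all 3 APRIL KO libraries, against 119 to 392 in WT and 169 to 486 in BAFF KO. Tnfsf13b, the gene of BAFF, was not analysed here. Among macrophage markers, Lyz2 stood at 2816 to 5272 RPKM and Adgre1, the F4/80 antigen, at 423 to 567. Of the 5 plasmacytoid dendritic cell markers in the table, Tcf4 reached 12.3 RPKM (with LPS), Cox6a2 3.37, Spib 1.97, Siglech 1.45 and Pacsin1 0.271. The 5 conventional dendritic cell markers in the table summed to 17.5 to 40.9 RPKM, most of it from Itgax. Markers of other cells differed between genotypes, and their values stand beside the genotype comparisons. These are bulk samples, in which fewer cells of a type and less RNA per cell cannot be told apart.

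To show what the promoters of these genes share, RefSeq sequences of 250 bases before to 50 bases after the start site were read for the 29 of the 40 members that the table of promoters holds (build GRCm38.p6, of which mm10 is the browser name). The ISRE core was searched as GAAANNGAAA on both strands. It was present in 10 of 29 members (34.5%), against 3.99% of all 27025 genes with a promoter in the table. The GAS core, TTCNNNGAA, which reads the same on both strands and is known from genes that answer to interferon-gamma, was present in 7 of 29 members (24.1%) against 9.55% of all genes. A match is a description of the letters, not of binding. The sequences below are the 250 bases before the start, 5′ to 3′ on the gene's strand, with ISRE cores on either strand in capitals. They are 5 of the members with a core before the start site, each from another role group (nucleotide enzymes, IFIT, OAS, restriction and the ISG15 system), with Cmpk2 added as the most induced member and one without a match. Rsad2 at chr12:26456453-26456702 (minus strand) has 1 core beginning at -120 from the start site. Its neighbour Cmpk2 at chr12:26468965-26469214 (plus strand) has none in this window. Ifit1 at chr19:34640639-34640888 (plus strand) has 2, at -104 and -85. Oas3 at chr5:120777660-120777909 (minus strand) has 1, at -75. Bst2 at chr8:71537473-71537722 (minus strand) has 2 that overlap, at -130 and -124. Isg15 at chr4:156200819-156201068 (minus strand) has 3 that overlap, at -78, -72 and -66.
Rsad2: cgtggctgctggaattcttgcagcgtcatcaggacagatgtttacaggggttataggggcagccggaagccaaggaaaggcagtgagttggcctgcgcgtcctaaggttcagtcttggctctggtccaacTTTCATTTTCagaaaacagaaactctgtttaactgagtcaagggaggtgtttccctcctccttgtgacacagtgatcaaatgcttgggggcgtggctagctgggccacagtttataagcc
Cmpk2: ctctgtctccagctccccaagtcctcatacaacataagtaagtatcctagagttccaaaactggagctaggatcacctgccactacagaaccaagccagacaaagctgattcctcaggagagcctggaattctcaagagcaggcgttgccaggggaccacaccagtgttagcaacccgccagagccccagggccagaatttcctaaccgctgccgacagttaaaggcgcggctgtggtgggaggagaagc
Ifit1: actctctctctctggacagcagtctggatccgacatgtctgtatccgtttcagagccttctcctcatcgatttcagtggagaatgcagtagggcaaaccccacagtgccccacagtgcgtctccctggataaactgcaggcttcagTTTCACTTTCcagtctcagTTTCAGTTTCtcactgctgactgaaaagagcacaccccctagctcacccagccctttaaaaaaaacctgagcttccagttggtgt
Oas3: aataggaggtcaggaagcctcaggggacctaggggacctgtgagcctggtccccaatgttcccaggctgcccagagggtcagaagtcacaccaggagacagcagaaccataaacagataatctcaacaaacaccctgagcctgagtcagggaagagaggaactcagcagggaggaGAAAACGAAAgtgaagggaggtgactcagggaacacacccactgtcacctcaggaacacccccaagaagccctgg
Bst2: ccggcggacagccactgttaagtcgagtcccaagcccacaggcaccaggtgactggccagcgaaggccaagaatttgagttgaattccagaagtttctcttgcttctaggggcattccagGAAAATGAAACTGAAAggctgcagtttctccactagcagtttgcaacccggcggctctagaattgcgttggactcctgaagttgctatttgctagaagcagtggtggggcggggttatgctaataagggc
Isg15: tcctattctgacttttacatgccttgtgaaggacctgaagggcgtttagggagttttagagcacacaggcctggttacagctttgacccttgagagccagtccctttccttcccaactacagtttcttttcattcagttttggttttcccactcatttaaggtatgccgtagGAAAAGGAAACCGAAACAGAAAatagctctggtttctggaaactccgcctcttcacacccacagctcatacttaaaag

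The other matches were in Oas1a, at -20 and -14, in Ifit3, at -156 and -122, and after the start site in Ddx58, at 2, Eif2ak2, at 18, and Ifih1, at 32. In Rsad2, Ifit1, Ifit3, Oas3, Bst2 and Isg15 the cores begin between -156 and -66.

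With LPS, 38 of the 39 members were higher and 0 were lower when the response was averaged over the genotypes (limma with Benjamini-Hochberg adjustment over all tested genes, adjusted p below 0.05). Of all 9934 tested genes 18.1% were higher in that comparison. The members were chosen with earlier results of these data known, so shares of members and of all genes are set side by side as description. The count was 38 of 39 in WT (13.7% of all genes), 38 of 39 in BAFF KO (16% of all genes) and 38 of 39 in APRIL KO (14.4% of all genes). The median member rose by 2.84 on the log2 scale, while the median of all tested genes fell by 0.44. The fall depends on the scaling: with libraries scaled by median ratios the median gene moved by -0.02 and the median member by 3.34, and 38 members were again higher. The members took 0.327 to 0.355% of a library's reads without stimulation and 3.1 to 3.61% with LPS. Their summed level went from 1143 to 1290 RPKM to between 9561 and 10290 RPKM. The map of all members shows the same step in every row but that of Isg15.

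**Figure D1:**
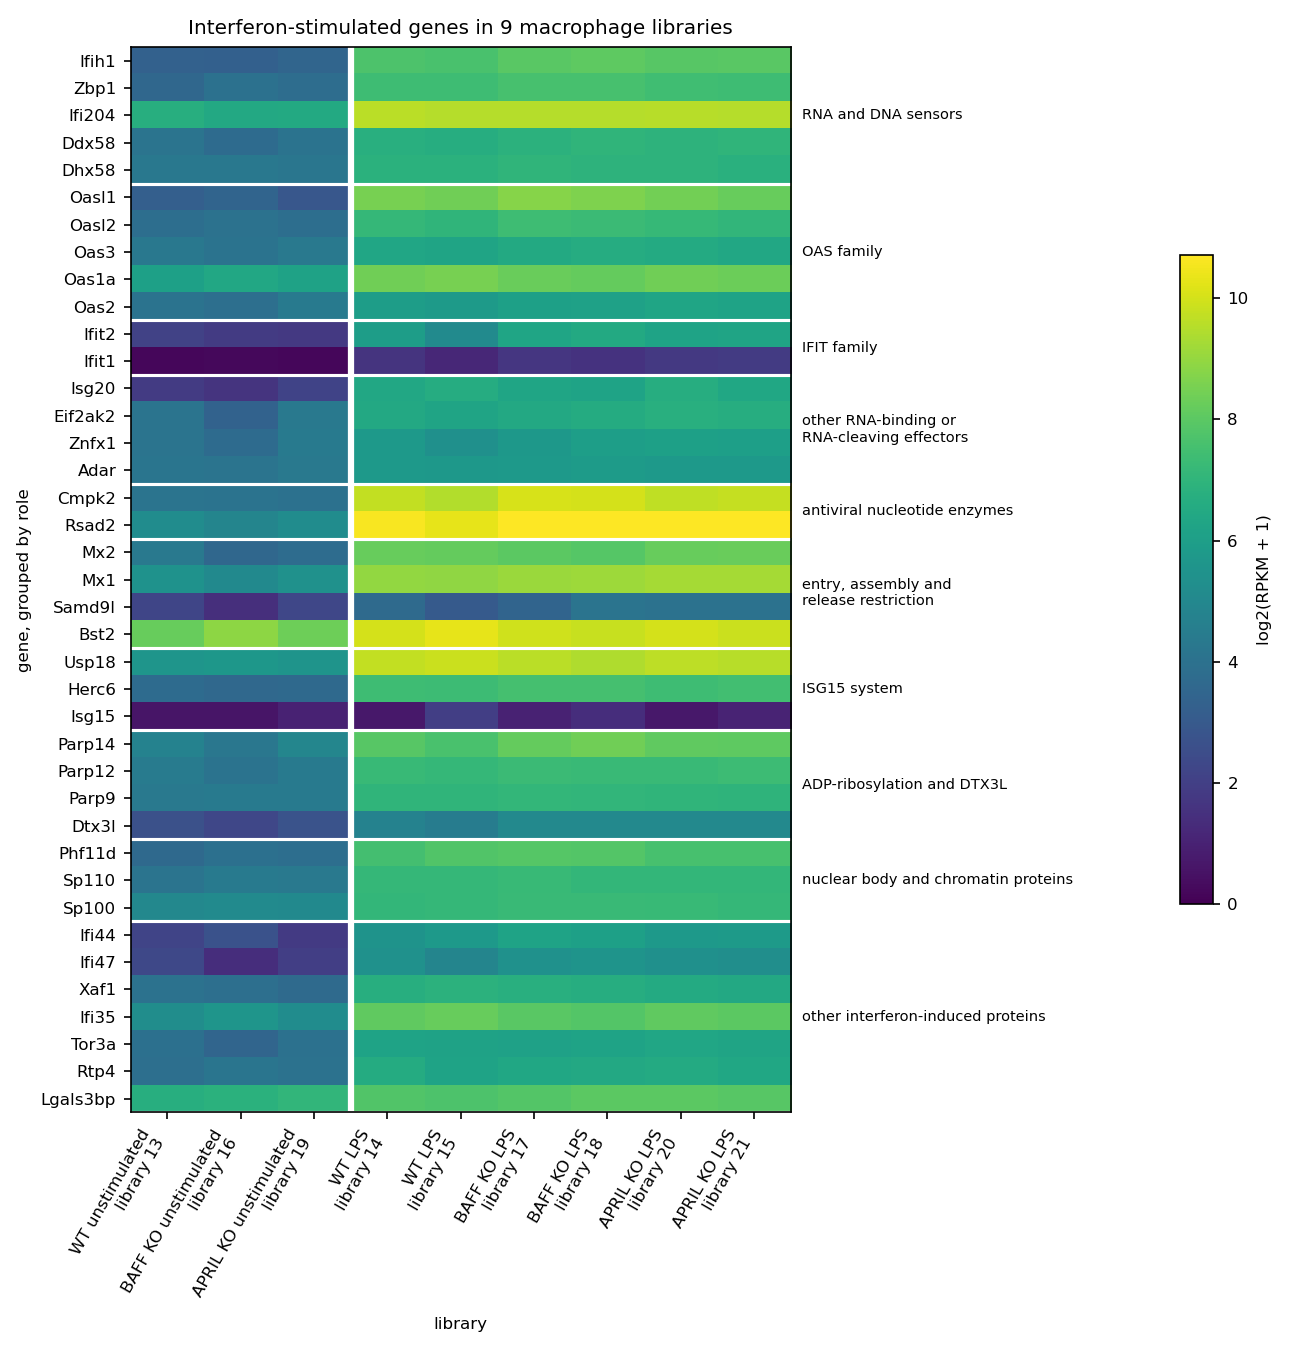
Level of 39 interferon-stimulated genes (rows, grouped by role) in 9 libraries (columns, the 3 unstimulated libraries left of the white line and the 6 LPS libraries right of it), colour giving log2(RPKM + 1). Every row but that of Isg15 is brighter in all 6 LPS libraries, with Rsad2 brightest at 1279.7 to 1675 RPKM.

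The most induced pair were neighbouring antiviral nucleotide enzymes on chromosome 12. Cmpk2 (ENSMUSG00000020638, mm10 chromosome 12, 26469204 to 26479837, plus strand) encodes a mitochondrial nucleotide kinase. Its level was 16.6, 15.7 and 14.9 RPKM in the unstimulated WT, BAFF KO and APRIL KO libraries. With LPS it was 855 and 717 in WT, 1055 and 1025 in BAFF KO and 826 and 861 in APRIL KO. The 6 LPS libraries thus stood far above the 3 unstimulated ones, by 5.72 ± 0.0698 on the log2 scale (SE; adjusted p = 8.9e-10) or 56.6-fold in mean RPKM. Rsad2 (ENSMUSG00000020641, mm10 chromosome 12, 26442746 to 26456452, minus strand) encodes viperin, a radical enzyme that makes a chain-terminating nucleotide. It stood at 35.8, 28.1 and 36.1 RPKM unstimulated and, with LPS, at 1538 and 1279.7 in WT, 1634 and 1664 in BAFF KO and 1675 and 1634 in APRIL KO. The difference was 5.52 ± 0.0717 (SE; adjusted p = 1.1e-09). Rsad2 had the highest LPS level of the members, a mean of 1571 ± 151 RPKM (SD over the 6 LPS libraries).

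All 5 RNA and DNA sensors rose. Ifih1 (MDA5, the sensor of long double-stranded RNA; mm10 chromosome 2, 62595798 to 62646255, minus strand) had the largest rise of them. It went from 8.97, 8.77 and 10.2 RPKM in WT, BAFF KO and APRIL KO to 209 and 199, 251 and 261, and 241 and 247, a difference of 4.51 ± 0.0552 (SE; adjusted p = 8.9e-10). Its relative Dhx58 (LGP2) had the smallest of the group. It was 18.4, 18.8 and 17.3 RPKM unstimulated and 115 and 114 in WT, 126 and 122 in BAFF KO and 121 and 109.8 in APRIL KO with LPS, a difference of 2.63. Between them were Zbp1, the sensor of Z-form nucleic acids, at 3.65, Ifi204, a sensor of DNA, at 2.97, and Ddx58 (RIG-I, which reads short RNA with a 5′ triphosphate) at 2.9. Ifi204 was the most abundant of the 5 already without stimulation, at 87 to 105 RPKM.

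Some members of the OAS family make 2-5A, the messenger that turns on RNase L. All 5 listed members of the family, which lie in clusters on chromosome 5, rose. Oasl1, an OAS-like protein known to restrain translation of Irf7, rose most. It was 8.42, 10.1 and 6.51 RPKM unstimulated in WT, BAFF KO and APRIL KO and 366 and 338, 439.6 and 403, and 344 and 301 with LPS, by 5.3 ± 0.0692 (SE; adjusted p = 1.1e-09). Oas2 rose least, from 16, 14 and 19.9 RPKM to 61.8 and 56.3 in WT, 66.1 and 68.5 in BAFF KO and 78.1 and 73.8 in APRIL KO, by 1.96. Oasl2, Oas3 and Oas1a were in between at 3.25, 2.24 and 2.1. Oas1a has close relatives in the genome, and how reads shared with them were counted is not given in the sources used here.

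IFIT proteins bind viral RNA ends. Ifit2 (mm10 chromosome 19, 34550694 to 34576419, plus strand) stood at 3.31, 2.64 and 2.42 RPKM unstimulated in WT, BAFF KO and APRIL KO. With LPS it was 61.4 and 34 in WT, 78.3 and 89.4 in BAFF KO and 72.8 and 74.9 in APRIL KO, a rise of 4.14 ± 0.167 (SE; adjusted p = 3.5e-07). The WT libraries were the lower ones under LPS and the farthest apart. Ifit1 was measured on few reads: 0 in unstimulated WT and APRIL KO, 1 in unstimulated BAFF KO, and 42, 59 and 73 in the LPS libraries of WT, BAFF KO and APRIL KO. Against a limit of 3 reads in the unstimulated library, Ifit1 was at least 7.36-fold higher with LPS in WT and at least 12.2-fold higher in APRIL KO. In BAFF KO the ratio of read rates was 30.2 (95% exact interval 5.21 to 1212). Limits and intervals cover counting error only. In RPKM, Ifit1 was 0.143, 0.168 and 0.143 unstimulated in WT, BAFF KO and APRIL KO and 2.09 and 1.29, 2.26 and 2, and 2.46 and 2.65 with LPS, a fitted difference of 1.42 (adjusted p = 2.7e-05) whose size depends on the added constant. The annotation gives Ifit1 at most 2 exons, and only 10.64% of protein-coding genes with 2 exons are in the table, against 63.33% of those with 6 or more.

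Of the other RNA-binding or RNA-cleaving effectors all 4 rose. Isg20, an exonuclease, went from 2.63, 2.07 and 3.51 RPKM in WT, BAFF KO and APRIL KO to 85.8 and 98, 78.3 and 72.8, and 100.1 and 82.3, by 4.55. Adar, the adenosine deaminase that marks self RNA, rose least of the group, from 17, 16.3 and 19.3 RPKM to 55.2 and 52.1, 55.3 and 57, and 52.3 and 54.4, by 1.58. Eif2ak2 (PKR, which stops translation when it meets double-stranded RNA) rose by 2.59 and Znfx1, an RNA helicase, by 1.75.

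Among the restriction factors, Mx GTPases and tetherin can act on incoming or budding virus, and SAMD9L can shut down translation in infected cells. All 4 genes rose. RNA levels do not show whether the Mx genes of these mice encode working proteins. Mx2 rose from 19.2, 10.9 and 12.7 RPKM to 297 and 293 in WT, 260.3 and 237 in BAFF KO and 296 and 306 in APRIL KO, by 4.24. Mx1 rose by 3.8 and Samd9l, at 1.75 to 3.8 RPKM without stimulation, by 1.74. The annotation gives Samd9l at most 2 exons, like Ifit1. Its LPS libraries stood at 11.9 and 7.17 RPKM in WT, 10 and 16.2 in BAFF KO and 15.2 and 15.6 in APRIL KO. Bst2 (tetherin, which holds budding virions on the membrane) had the highest unstimulated level of all members. It stood at 301 RPKM in WT, 480.3 in BAFF KO and 321 in APRIL KO, and with LPS at 1043 and 1276, 969 and 907, and 1049.7 and 936. Its rise of 1.51 was the smallest in this group, and the 3 unstimulated libraries ended below all 6 LPS libraries.

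In the ISG15 system, which couples a ubiquitin-like protein to targets, Usp18 and Herc6 rose and Isg15 could not be read. Usp18, the protease that removes ISG15 and dampens the interferon receptor, stood at 47.4, 50.2 and 45.3 RPKM unstimulated in WT, BAFF KO and APRIL KO. With LPS it was 848 and 929.8, 781 and 683, and 806 and 755, a rise of 4.04. Herc6, an ISG15 ligase of the mouse, rose by 3.77. Isg15 was the only member that did not pass the test (0.4 ± 0.271, SE; adjusted p = 0.2). It had 0, 0 and 2 reads in the unstimulated WT, BAFF KO and APRIL KO libraries, and with LPS 1 and 9 in WT, 1 and 5 in BAFF KO and 1 and 4 in APRIL KO. Its RPKM, 0.503, 0.503 and 1.06 unstimulated and 0.617 and 2.94 in WT, 1.03 and 1.67 in BAFF KO and 0.594 and 1.11 in APRIL KO with LPS, overlap. A gene with 0 reads carries a fixed small value in the table, which for Isg15 is 0.503 RPKM. Most of its LPS reads thus came from 1 library of each genotype, and no fold is given for WT and BAFF KO. In APRIL KO its ratio of read rates was 1.25 (95% exact interval 0.205 to 13.1), and a difference was not detectable at this depth. Without library 14 (WT with LPS) its averaged difference was 0.62 (adjusted p = 0.011). Isg15 has 2 exons, like Ifit1, and a promoter with 3 overlapping ISRE cores, printed above.

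The 4 genes of ADP-ribosylation, counting the ubiquitin ligase gene Dtx3l, all rose. Parp14 (mm10 chromosome 16, 35832874 to 35871544, minus strand), an ADP-ribosyltransferase, went from 26.1, 18 and 29.1 RPKM in WT, BAFF KO and APRIL KO to 244 and 196, 286 and 334, and 273 and 267, by 3.4. Dtx3l, which acts with PARP9, rose least, from 5.24, 3.88 and 5.68 RPKM to 26.1 and 21.3, 31.9 and 31.6, and 31.9 and 32.4, by 2.35. Parp12 rose by 2.94 and Parp9 by 2.64. Parp9 and Dtx3l overlap on opposite strands, and whether the libraries keep strand is unclear, so their reads at the overlap cannot be told apart. In the annotation 16 of the 40 members overlap another gene, 15 of them one on the opposite strand. The 5 with an overlap on the same strand are Herc6, Parp14, Sp100, Rtp4 and Ifi47. How reads at these overlaps were counted is not known.

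Nuclear body and chromatin proteins rose as well, 3 of 3. Phf11d had the largest difference, from 11.5, 14.6 and 13.7 RPKM in WT, BAFF KO and APRIL KO to 181 and 223, 234 and 226, and 190.4 and 192, by 3.87. It has close relatives, and how shared reads were counted is not known. Sp100, a nuclear body protein, had the smallest, from 30.8, 34.1 and 33.4 RPKM to 136 and 139, 150.4 and 150.1, and 148 and 141, by 2.1. Sp110 rose by 2.84.

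The 7 other interferon-induced proteins rose by 1.03 to 3.64. Ifi44 (mm10 chromosome 3, 151730922 to 151749960, minus strand) was at the top, from 3.56, 5.52 and 2.49 RPKM in WT, BAFF KO and APRIL KO to 44.3 and 55.1, 74.2 and 67.7, and 52.4 and 55.5. Lgals3bp, a secreted galectin-binding glycoprotein, was at the bottom, with the smallest difference of the called members (1.03). It went from 104, 112 and 129.8 RPKM to 221 and 207, 230.3 and 258, and 255 and 246, which is 2.05-fold in mean RPKM. Ifi47, an immunity-related GTPase, rose by 3.42, Xaf1, which promotes apoptosis, by 2.77, Ifi35 by 2.69, Tor3a by 2.4 and Rtp4 by 2.37.

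The members kept much of their order under LPS. Across the 39 members the mean LPS level followed the unstimulated level (Pearson r 0.78, Spearman rho 0.65), as a description across genes that share libraries. The highest LPS means were those of Rsad2 at 1571, Bst2 at 1030.2, Cmpk2 at 889.8 and Usp18 at 800.3 RPKM. Their LPS libraries spread over 1279.7 to 1675, 907 to 1276, 717 to 1055 and 683 to 929.8 RPKM, so each range but that of Rsad2 overlaps with its neighbours in the order.

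The rises in the 3 genotypes put the members in a similar order, and 38 members were called in each. The median rise was 2.75 in WT, 3.07 in BAFF KO and 2.82 in APRIL KO. For Ifit1 and Isg15, where the unstimulated library had no read, the fitted value was also replaced by a lower limit. That limit is the log2 of a ratio of read rates, which is not the log2(RPKM + 1) scale of the other members. The medians with such replacements were 2.82, 3.07 and 2.91. Over the 39 members the rises in WT and BAFF KO had a Pearson r of 0.92, those in WT and APRIL KO 0.97 and those in BAFF KO and APRIL KO 0.96. No member's response differed from WT by the test of the difference itself (limma interaction, adjusted p below 0.05): 0 in BAFF KO (0.443% of all genes) and 0 in APRIL KO (0% of all genes). At an unadjusted p below 0.05 the counts were 20 members in BAFF KO (21.6% of all genes) and 4 in APRIL KO (3.39% of all genes), and the latter was 10 without library 14 and 1 without library 20 or 21. With limma voom on recovered reads, 3 members passed in BAFF KO, where 6.04% of all genes did, a share near that of the members, and 0 members and 0% of all genes passed in APRIL KO. The largest differences of response in BAFF KO were those of Ifi47, 1.25 ± 0.296 (SE; adjusted p = 0.093), Samd9l, 1.21 ± 0.456 (adjusted p = 0.19), and Ifit2, 1.11 ± 0.408 (adjusted p = 0.18), and the most negative that of Bst2, -0.97 ± 0.205 (adjusted p = 0.078). With 1 unstimulated library per genotype, each of these rests on that library. The plot of responses shows the 2 knockouts against WT.

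**Figure D2:**
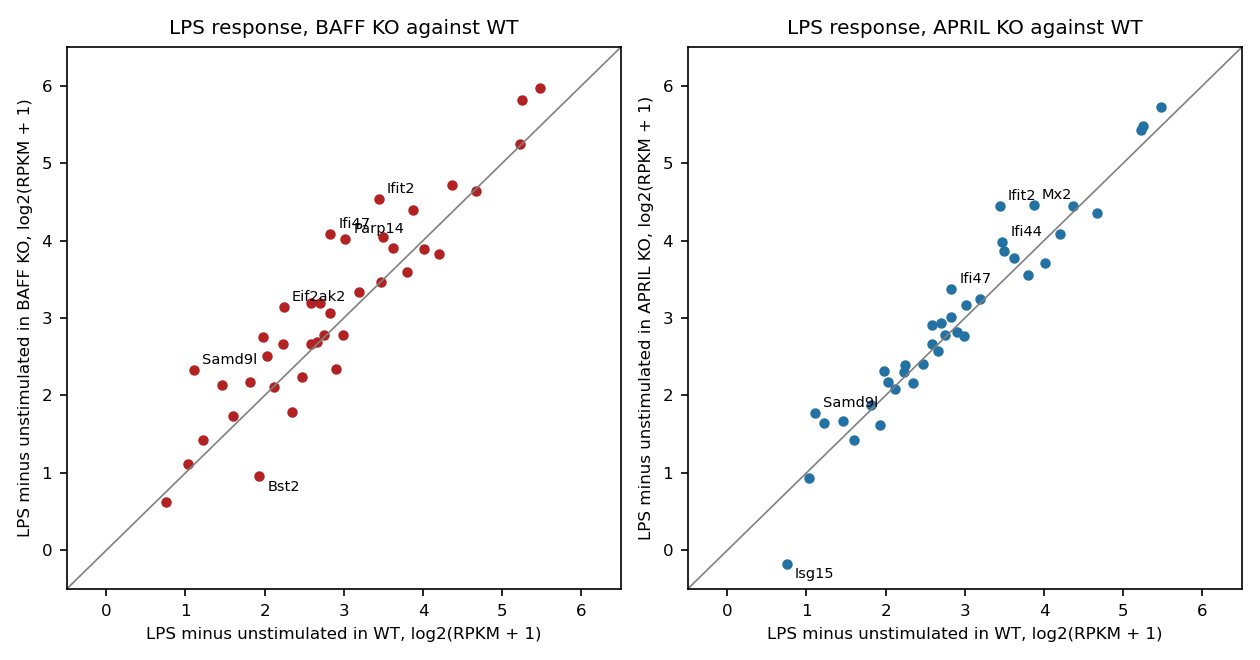
Each point is 1 of 39 genes, placed by its LPS minus unstimulated difference in log2(RPKM + 1) in WT (horizontal) and in BAFF KO (left panel, vertical) or APRIL KO (right panel, vertical), with the line of equal response. Points follow the line up to Cmpk2 at 5.48 in WT, Bst2 lies below it in BAFF KO and Isg15 in APRIL KO, and the 6 points farthest from it in each panel are named.

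Under LPS, 4 members were higher in BAFF KO than in WT and 0 were lower, where 3.99% of all genes were higher and 4.35% lower. The 4 were Ifih1, Cmpk2, Parp14 and Ifi44, by 1.26 to 1.43-fold in mean RPKM. Ifih1 had 256 ± 7.25 RPKM in BAFF KO against 204 ± 7.14 in WT (SD, 2 libraries each), a difference of 0.33 ± 0.078 (SE; adjusted p = 0.044). Cmpk2 had 1040.0 ± 21.1 against 786 ± 97.7 RPKM, or 0.41 (adjusted p = 0.045). Parp14 had 309.6 ± 33.9 against 220.1 ± 34 RPKM, or 0.49 (adjusted p = 0.049). Ifi44 had 71 ± 4.59 against 49.7 ± 7.64 RPKM, or 0.51 (adjusted p = 0.046). In each of the 4, both BAFF KO libraries were above both WT libraries. These calls lie just under the threshold and end easily: 0 members were called higher when any 1 of libraries 17, 18, 20 or 21 was left out, 1 (Ifi44) without library 15, and 3 (Ifit2, Cmpk2 and Parp14) without library 14. With limma voom on the recovered reads, which called more genes in all (6.61% higher and 5.6% lower), 7 members were called higher (Ifih1, Cmpk2, Parp14, Ifi44, Oasl2, Ifit2 and Dtx3l) and 1 lower (Usp18).

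**Figure D3:**
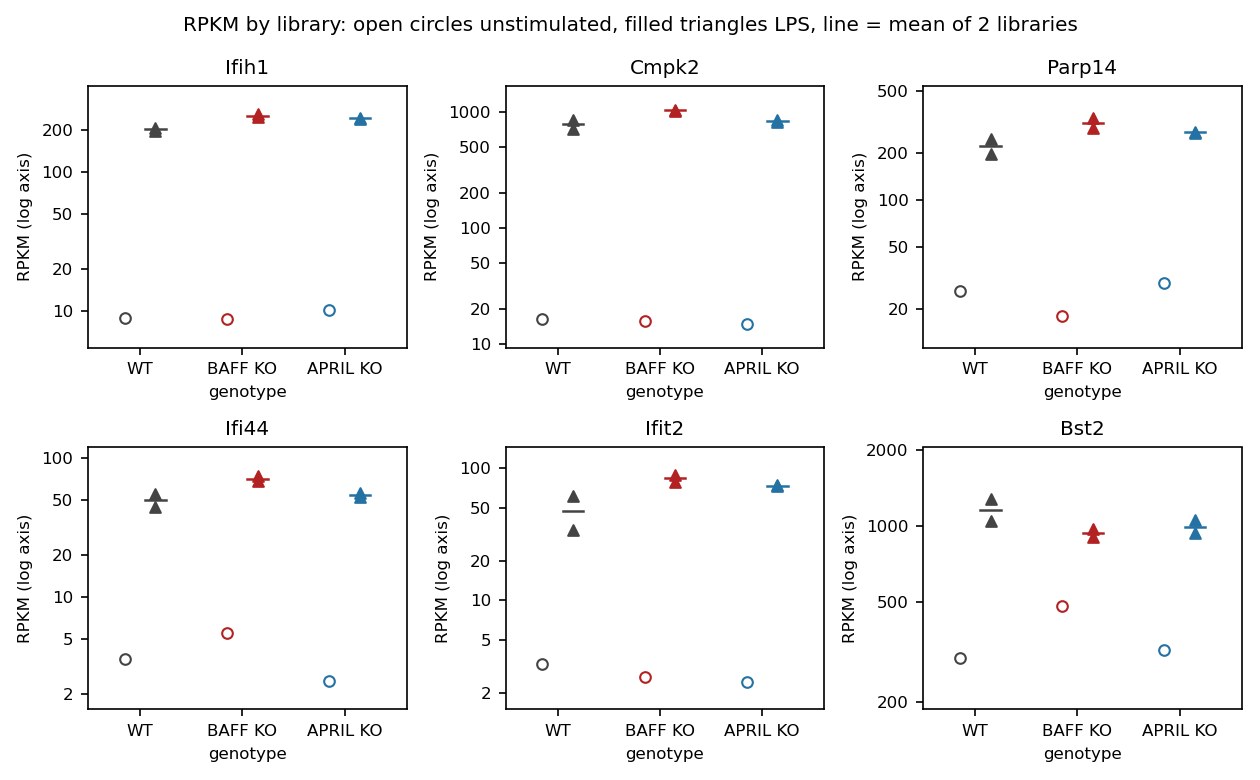
RPKM (log axis) of 6 genes by genotype, open circles for the 1 unstimulated library and filled triangles for the 2 LPS libraries, with a line at their mean. In Ifih1, Cmpk2, Parp14, Ifi44 and Ifit2 both BAFF KO triangles are above both WT triangles, in Bst2 they are below, and every triangle is far above the circles but in Bst2, where the gap is smallest.

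Over all members, 29 of 39 differences between BAFF KO and WT under LPS were positive (74.4%, against 53.3% of all tested genes), and their median was 0.18 against 0.02 over all tested genes. Without library 15 the median was 0.1. At an unadjusted p below 0.05 there were 16 members, where 25.2% of all genes had one, and 7 without library 15 or without library 18. Both BAFF KO libraries were above both WT libraries in 23 members (59%), where 29.9% of all genes showed this, and below in 6 members (15.4%), where 25.5% did. Ifit2 had the largest difference, 0.86 ± 0.236 (SE; adjusted p = 0.066). The members at the other end were Bst2 (-0.3), Isg20 (-0.28), Usp18 (-0.28), Mx2 (-0.25), Ifi35 (-0.25) and Oas1a (-0.24), each with an adjusted p above the threshold.

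APRIL KO against WT uses the same WT libraries, so its values are given side by side and not as a second reading. Here 0 members passed (0.211% of all genes did) and 14 had an unadjusted p below 0.05, where 15.5% of all genes had one. That count was 2 without library 15 and 5 without library 20 or 21. The median was 0.07 against 0.01 over all genes. Both APRIL KO libraries were above both WT libraries in 18 members (46.2%; 25.4% of all genes) and below in 4 (10.3%; 22.6% of all genes). For the 4 members called in BAFF KO the differences were 0.26 for Ifih1, 0.11 for Cmpk2, 0.3 for Parp14 and 0.13 for Ifi44. The largest were those of Ifit2 at 0.68 and Samd9l at 0.67 and the most negative, leaving aside Isg15 with its few reads (-0.46), that of Xaf1 at -0.3. Between BAFF KO and APRIL KO under LPS 0 members differed (5.54% of all genes did), 7 had an unadjusted p below 0.05 (19.4% of all genes), and 19 of 39 differences were positive. With limma voom 3 members were higher (4.07% of all genes) and 1 lower (4.36% of all genes) in BAFF KO than in APRIL KO, and 0 passed in APRIL KO against WT (0.846% of all genes). The plot of genotype differences shows all members.

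**Figure D4:**
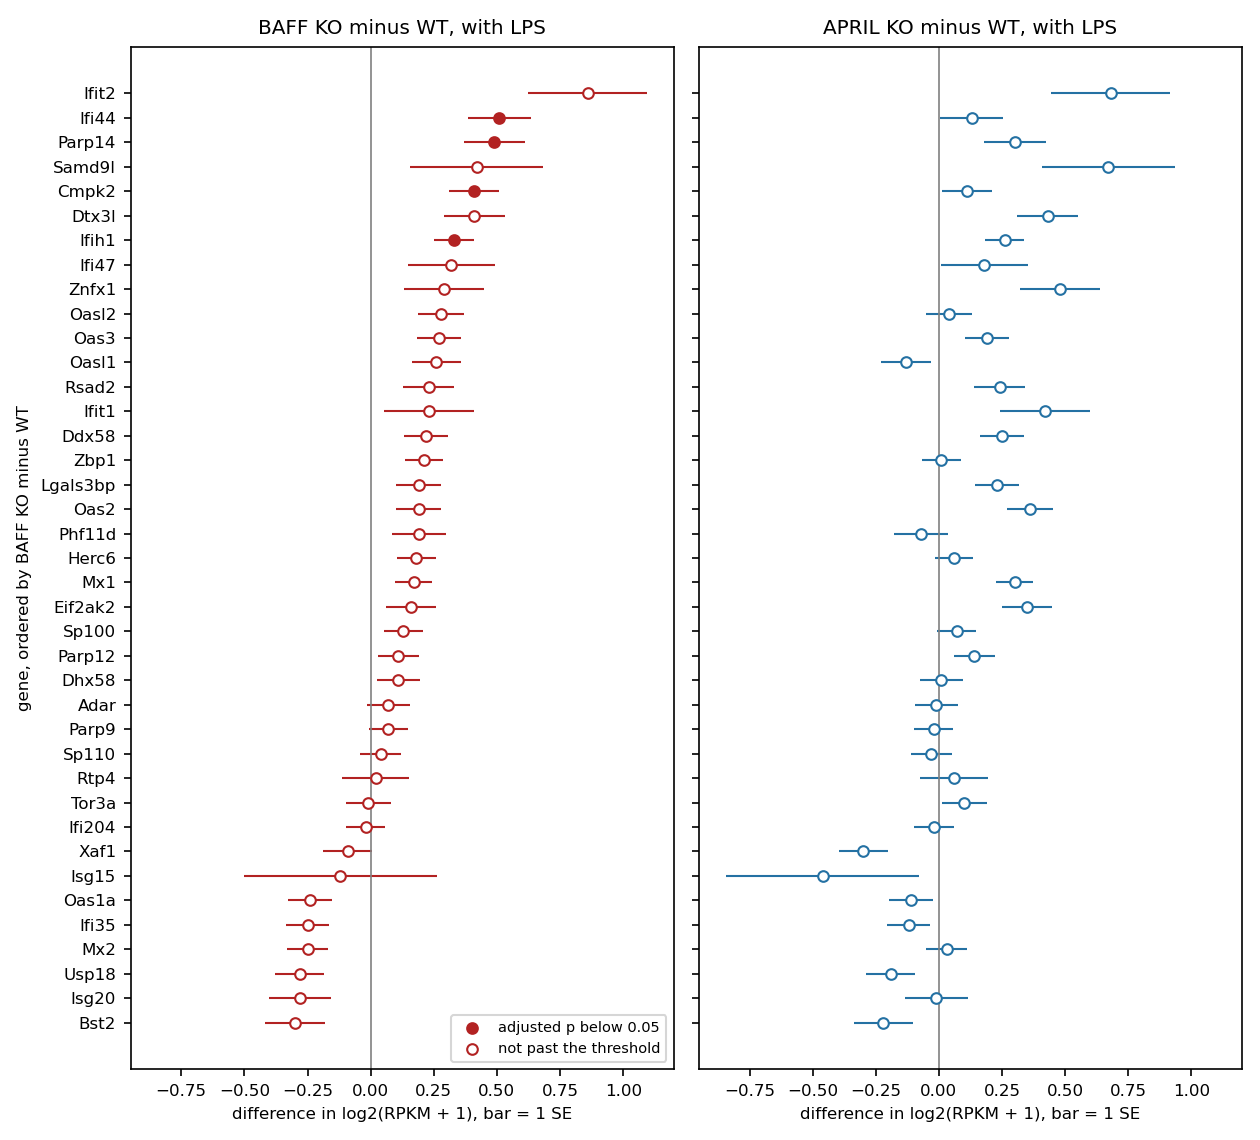
Difference in log2(RPKM + 1) between LPS libraries of BAFF KO and WT (left) and of APRIL KO and WT (right) for 39 genes in 1 order, bars giving 1 SE and filled points an adjusted p below 0.05. The 4 filled points are Ifi44, Parp14, Cmpk2 and Ifih1 on the left and there are none on the right; both panels use the same 2 WT libraries.

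Several measures moved with genotype in the same libraries, and their part in these differences was not tested. Of 9 neutrophil markers in the table, 6 were higher in BAFF KO than in WT under LPS (3.99% of all genes were). Their summed level was 3096 RPKM in WT, 5824 in BAFF KO and 2753 in APRIL KO unstimulated, and with LPS 1346 to 1703 in WT, 2325 to 2709 in BAFF KO and 1589 to 1627 in APRIL KO. Skeletal muscle genes, of which 10 of 12 were tested, were lower than in WT under LPS in BAFF KO (9) and APRIL KO (3). Of all genes 4.35% were lower in BAFF KO, and 0.211% differed in either direction in APRIL KO. The muscle genes are described next by their sums. They summed to 209 to 305 RPKM in the 3 WT libraries, 22 to 43.4 in BAFF KO and 23.7 to 55.8 in APRIL KO. Fibroblast genes summed to 432 RPKM in library 21 and 223 in library 14, and to 7.17 to 129 in the other 7. The summed level of 4 B cell markers was 11.2 to 19.1 RPKM in BAFF KO and 23.2 to 32.9 in the other libraries. Of the 7 macrophage markers 2 were lower in BAFF KO than in WT under LPS (4.35% of all genes were) and 0 were higher. Fcgr1 stood at 77.4 and 72 RPKM in BAFF KO and 139 and 143 in WT with LPS, and Cd14 at 101 and 108 against 226 and 169.8. The 5 plasmacytoid dendritic cell markers summed to 7.27 to 15.3 RPKM, most of it from Tcf4 with LPS, and Pacsin1 was under 1 RPKM in all libraries.

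Gene length also moved with these differences. Library 15 (WT with LPS) leaned towards shorter genes against library 14 (Spearman rho of difference and length -0.23 over 9934 genes, -0.39 over the 39 members). Library 16 (unstimulated BAFF KO) did so against library 13 (-0.37 and -0.45). Others leaned the other way: library 18 against library 17, both BAFF KO with LPS (0.22 and 0.39), library 19 against library 13, unstimulated APRIL KO and WT (0.29 and 0.1), and library 21 against library 20, both APRIL KO with LPS (0.03 and 0.35). Over the members, the difference in LPS response between BAFF KO and WT rose with length (Pearson r 0.59, Spearman rho 0.6), with Bst2, whose length behind the RPKM is 759 bases, at the low end. After a trend on length had been removed from each library, 2 members (Cmpk2 at 0.41, adjusted p = 0.04, and Ifi44 at 0.53, adjusted p = 0.037) were higher in BAFF KO than in WT under LPS (3.74% of all genes), 0 responses differed (0.292% of all genes), and the median difference was 0.11. Ifih1 was then at 0.19 (adjusted p = 0.15) and Parp14 at 0.37 (adjusted p = 0.067). Removing the trend also takes out any genotype difference that goes with length, so the part of length was not tested.

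**Figure D5:**
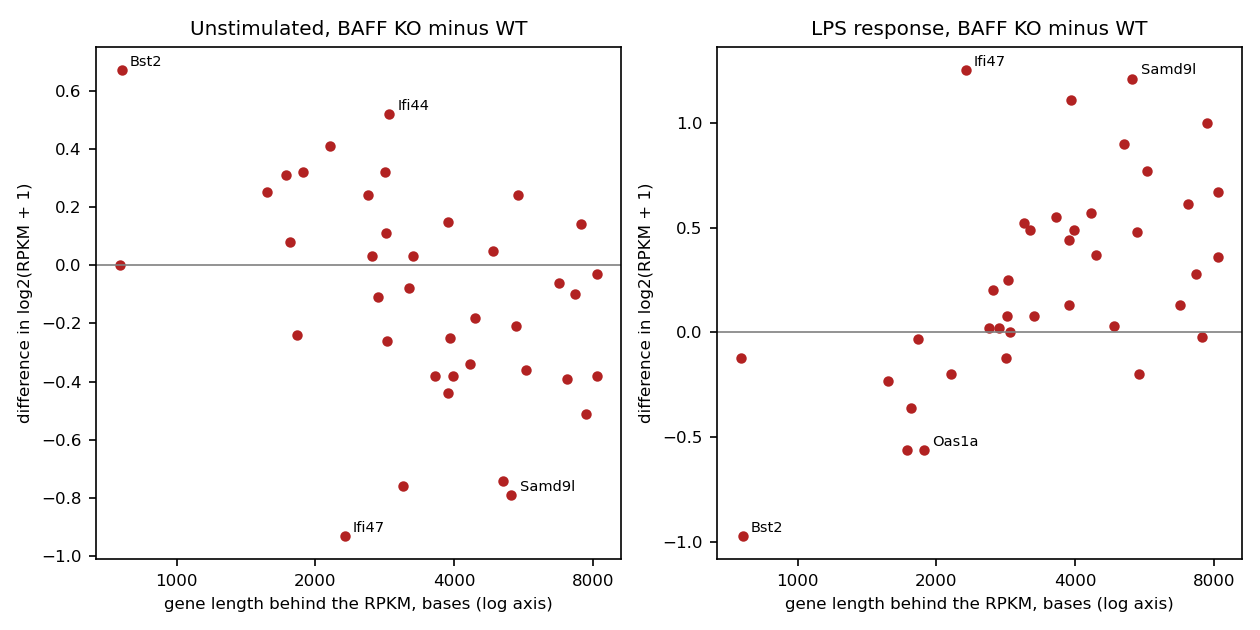
Gene length behind the RPKM (log axis, bases) against the difference in log2(RPKM + 1) between unstimulated BAFF KO and WT (left) and the difference between their LPS responses (right), 1 point for each of 39 genes. Short Bst2 is highest on the left and lowest on the right (0.67 and -0.97), and the longer genes lie mostly below 0 on the left and above it on the right.

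Without stimulation there was 1 library per genotype, and these differences are described without a test. A member was counted where the knockout differed from WT by at least 1 on the log2(RPKM + 1) scale with both of its columns beyond both WT columns. In BAFF KO 0 members did (1.81% of all genes) and in APRIL KO 0 did (1.31% of all genes). In BAFF KO 16 members were above WT and 22 below, with a median of -0.08 against -0.07 over all genes. The differences ran from -0.93 for Ifi47 (1.64 against 4.03 RPKM) to 0.67 for Bst2 (480.3 against 301 RPKM). Samd9l, Mx2 and Eif2ak2 were next to Ifi47, at -0.79, -0.76 and -0.74. Taken as a ratio of RPKM without the added constant, 2 members were at least 2-fold apart in BAFF KO (5.5% of all genes), Ifi47 at 0.406 and Samd9l at 0.466 of the WT level. In APRIL KO 1 was (4.12% of all genes), namely Isg15. In APRIL KO 22 members were above WT and 16 below, with a median of 0.04 and a range from -0.55 for Mx2 to 0.46 for Isg15, the latter on 2 reads against 0. With the trend on length removed, the BAFF KO counts were 18 above and 21 below.

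The pathway around these genes was counted from lists that, like the members, were chosen with earlier results of these data known. Of 9 interferon ligands only Ifng was in the table, and it did not pass (0.75; adjusted p = 0.079). It was at its 0-read value of 0.315 RPKM in all 3 unstimulated libraries and in library 14, and highest at 4.38 RPKM in library 18. Genes of interferon-alpha and interferon-beta were not analysed here. Absence from the table is not a reading of expression. It holds 0.23% of protein-coding genes with 1 exon, against 63.33% of those with 6 or more. Over all genes 18.1% rose and 62.1% fell with LPS, or 30.8% and 30.3% with median ratio scaling, and the lists are to be read against these shares. Of 10 receptors, kinases and STATs 8 rose and 1 fell. Stat2 rose from 35.9 to 42.3 RPKM without stimulation to 139 to 191 with LPS, by 2.09. Jak2, a kinase of the interferon-gamma receptor, rose most, from 17.7 to 33.6 RPKM to 203 to 287, by 3.17, and Ifngr1, a chain of that receptor, fell from 37.3 to 47.2 RPKM to 15 to 19.4, by 1.27. Ifnar1 rose by 0.42 and Ifnar2 by 0.37. The 1 member of the list that did not pass was Ifngr2 at -0.01.

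Interferon regulatory factors rose in 6 of 8 and fell in 1. Irf1 had the largest difference, from 22.6, 20.6 and 20 RPKM in WT, BAFF KO and APRIL KO to 242 and 239.8, 410.4 and 437, and 198 and 208, by 3.64. Irf7, the factor that amplifies interferon production, went from 35.9, 46.9 and 33.3 RPKM to 408 and 453, 403 and 383, and 436 and 395, by 3.39. Irf9, the DNA-binding partner of STAT2, rose by 1, from 19.2 to 20.3 RPKM to 38.8 to 43.2. Irf3 fell by 0.75, from 14.8 to 15.6 RPKM to 7.86 to 9.64. Of 12 adaptors and kinases of the Toll-like receptor and nucleic acid sensing pathways 7 rose, with Tlr3, a receptor of double-stranded RNA, first at 2.48 (0.472 to 1.28 RPKM without stimulation, 7.81 to 13 with LPS). The 2 that fell were Mavs, the adaptor of RIG-I and MDA5, at -1.11 and Tlr4 at -0.52. Both are low: Mavs went from 3.13 to 4.45 RPKM to 0.872 to 1.83, and Tlr4 from 1.11 to 2.1 RPKM to 0.722 to 1.13. At such levels the size of a difference depends on the added constant. Of 7 negative regulators 4 rose, with Socs3 first at 4.21, and 1 fell, Trim24 at -0.84. Trim24 was low as well, at 1.8 to 2.74 RPKM without stimulation and 0.679 to 1.08 with LPS. With median ratio scaling 3 of the 5 falls passed, at -0.77 for Ifngr1, -0.75 for Mavs and -0.52 for Trim24. Irf3 was then at -0.27 (adjusted p = 0.051) and Tlr4 at -0.23 (adjusted p = 0.13).

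Between genotypes under LPS, 5 of the 38 tested genes of these lists differed in BAFF KO from WT (13.2%, against 8.34% of all genes). Irf1 was higher by 0.81 ± 0.078 (SE; adjusted p = 0.0018), with both BAFF KO libraries above the other 4. Tyk2, the kinase of IFNAR1, was higher by 0.6 (adjusted p = 0.016), at 45.2 and 51.6 RPKM against 30.5 and 32.8 in WT. Its adjusted p was 0.08 without library 14, 0.056 without library 15 and 0.11 without library 18. Ifnar1 itself was lower by 0.69 ± 0.0969 (SE; adjusted p = 0.0069). It stood at 21.7 and 23.6 RPKM in BAFF KO, 38.2 and 36 in WT and 51.8 and 47.3 in APRIL KO with LPS, and at 16.1, 29.8 and 35.3 RPKM unstimulated, so BAFF KO was lowest in both states. Without library 17 its adjusted p was 0.057. Cd14, the co-receptor of LPS, was lower (-0.9; adjusted p = 0.0087), at 101 and 108 RPKM against 226 and 169.8. Without library 17 or 18 its adjusted p was 0.07 or 0.059. Socs3, an inhibitor of JAK kinases, was lower (-1.06, adjusted p = 0.034), at 12.1 and 19.3 RPKM against 37 and 29.1. When 1 LPS library was left out, Socs3 passed only without library 18 (-1.37). In APRIL KO 0 genes of these lists differed from WT under LPS.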

How the data were processed

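The authors deposited 1 table of RPKM values for 11164 genes in 18 columns, 2 for each of 9 libraries. Per the submitters' processing notes, STAR and the mm10 build were used. Neither counter nor annotation is given in the sources used here. The labels' protocols leave unclear whether strand was kept. Symbols came from GENCODE M21 (11084 genes, 80 without one).

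The 2 columns of a library were averaged. A gene was tested if any group averaged 1 RPKM or more. The test was that of limma 3.58.1 (R 4.3.3) on log2(RPKM + 1) (6 group means, 9 libraries, 3 residual degrees of freedom, eBayes with a trend, 2-sided), with p-values adjusted by Benjamini-Hochberg over the 9934 tested genes and a threshold of 0.05. A group with 1 library is assumed to vary like the others. Reads were recovered from the RPKM (100% whole within 0.01). The table adds 1 read to each count and sets 0 reads to a fixed value per gene. The RPKM values are relative to the reads in listed genes, which matched the scaling of all 18 columns within 1 read. A larger share of these reads for some genes means a smaller share for the rest. How far this accounts for falls with LPS was not tested.

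The members and lists were chosen with earlier results of these data known. Values in every library are given for the largest and smallest LPS difference of each role group, for members called between genotypes and for members not called with LPS. Pathway genes are the largest rise and fall of each list, with the ligands, Irf7, Irf9, Stat2, Ifnar1 and Ifnar2, and 1 gene that the rule names is not reported here. Pathway genes that differed between genotypes, and the members whose response or unstimulated level differed most, were named after their values were seen. Promoters came from RefSeq (GRCm38.p6).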

Additional observations from a re-analysis of the deposited data

Results flagged for a closer look

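Irf1, the interferon regulatory factor, had an LPS response larger in BAFF KO than in WT by 0.94 ± 0.135 on the log2 scale (SE, limma interaction, adjusted p = 0.036). This comparison called 0.443% of all genes and rests on 1 unstimulated library per genotype. The rise was 4.3 in BAFF KO, 3.36 in WT and 3.28 in APRIL KO. Each of the 2 BAFF KO LPS libraries was above the 2 WT ones. The adjusted p was 0.061 with median ratio scaling and 0.061 with the trend on length removed, 0.015 with limma voom on recovered reads, and 0.08 to 0.15 when any 1 LPS library was left out. No member of the antiviral set was called in this comparison.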

How the results depend on the processing

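Each result was recomputed with median ratio scaling, without a filter, with a pseudocount of 0.1, with 18 separate columns, with 1 index column (lower or higher), with a replicate block, with a difference of at least 1 required, and with each library left out. Limma voom on recovered reads and the removal of a trend on length were chosen after seeing the data. The counts of members higher with LPS were 37 to 39 under all of them. The count of members higher in BAFF KO than in WT under LPS, 4, was 1 without the filter, 2 with median ratio scaling, 16 with 18 columns (and 5 lower), 0 with the lower and 2 with the higher index column, 0 with a difference of at least 1, 7 with voom (and 1 lower) and 2 with the trend on length removed, and 0 to 4 when 1 library was left out. With the replicate block it was 0. Deviations of same-numbered libraries had correlations of -0.18, -0.1 and 0.12 between genotypes. Each rests on 1 pair of LPS libraries per genotype, and the labels do not give their sources. Whether replicate numbers pair the samples therefore cannot be told. With 18 columns, which share libraries, 14 members were higher and 1 lower in APRIL KO than in WT, where 1361 of all genes were called. In BAFF KO against APRIL KO 6 members were higher and 2 lower (1824 of all genes). In BAFF KO and APRIL KO 23 and 1 responses of members differed (2193 and 8 of all genes). For BAFF KO against WT, calls over all genes in either direction were 2706 with 18 columns and 828 in the main test. They were 617 without the filter, 814 with median ratio scaling, 227 and 684 with the lower and higher index column and 564 with the replicate block. Voom gave 3 higher and 1 lower in BAFF KO than in APRIL KO, and 3 responses that differed in BAFF KO. Without stimulation the count of members at least 1 apart on the log2(RPKM + 1) scale, 0, was 2 with a pseudocount of 0.1 and 1 with either index column alone. Of 737 values of named genes under alternatives, 665 kept direction and call, 68 lost the call, 4 gained it and none reversed. The cause of these changes was not tested. Isg15 and Ifit1, with at most 6 and 26 reads in a column, limit what can be said of them, and 2 libraries per LPS group and 1 per unstimulated group limit the genotype comparisons.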
